A study of Mus musculus with 14 samples.

Results

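Classical monocyte genes were followed as a set of 9 transcripts, Ly6c2, Ccr2, Chil3, Lyz2, Plac8, F13a1, Vcan, Fn1 and Cd93, in microglia sorted from the dorsal lumbar spinal cord of mice with serum-transfer arthritis. The set was selected on the values measured here, as genes known from blood monocytes that were high in some libraries of mice given K/BxN serum, so their levels by serum are given as a description and are not tested. All 9 were found among the 14329 genes with deposited values, and 5 of them (Ly6c2, Ccr2, Chil3, Lyz2 and F13a1) passed the filter for the tests (10 reads or more in 7 or more of the 14 libraries), as did 12645 genes in all. Mice were 6 months old and were either WT C57BL/6 or TASTPM. TASTPM mice, a heterozygous model of Alzheimer's disease, carry, on the same background, human amyloid precursor protein with the Swedish mutation and a mutant human presenilin, each driven by the murine Thy-1 promoter, which is mostly active in neurons. Arthritis was induced by injections of serum from K/BxN mice (K/BxN ST), while the comparison group (Control ST) was injected with KRN/C57 serum from a pool in matched amounts, so every mouse received serum of other mice. K/BxN ST is represented by 4 libraries in each genotype and Control ST by 3, and every library was made from 2000 cells of a dorsal spinal cord after perfusion with PBS and removal of the meninges.

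The sort bears directly on these genes. According to the study's methods, cells were kept when they were CD45 low, CD11b positive and CX3CR1 positive and negative for Ly6C and CCR2, so the proteins made from Ly6c2 and Ccr2 were among those used to remove monocytes. Classical monocytes leave the bone marrow through CCR2, carry Ly6C at a high level and can enter inflamed tissue, where they turn into macrophages. Microglia are the resident macrophages of the spinal cord, arise in the embryo and, in the healthy state, make the receptors P2RY12 and CX3CR1 and the surface protein TMEM119. Transcripts such as Lyz2 are made by both kinds of cell, whereas Ly6c2, Ccr2, Chil3 and Vcan are scarce in resting microglia.

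The values are normalized counts, reads scaled by a single factor per library, and libraries held 14223015 to 20239175 reads on genes. The heading above each column of values gave its group. In TASTPM K/BxN ST the column numbers match the labels. In the other 3 groups they do not, and matching by number would place some columns in another group, so the groups rest there on the headings alone and libraries are numbered in the order of the columns. All 14 libraries held the homeostatic microglia genes, with 13 of 13 present in each, and P2ry12 lay between 34656 and 166138. Before any comparison it has to be said that 4 of the 8 K/BxN ST libraries stood apart from the other 10 libraries for all 9 monocyte genes, namely WT K/BxN ST libraries 1 and 2 and TASTPM K/BxN ST libraries 1 and 2. The lowest of these 4 libraries was between 10.7 times (F13a1) and 727 times (Chil3) the highest of the other 10. Values are therefore given for each library, and results are given with and without these 4. In sorted bulk RNA, a larger number of cells of a type cannot be told apart from more RNA per cell. The study's methods give individual mice as the replicates.

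**Figure D1:**
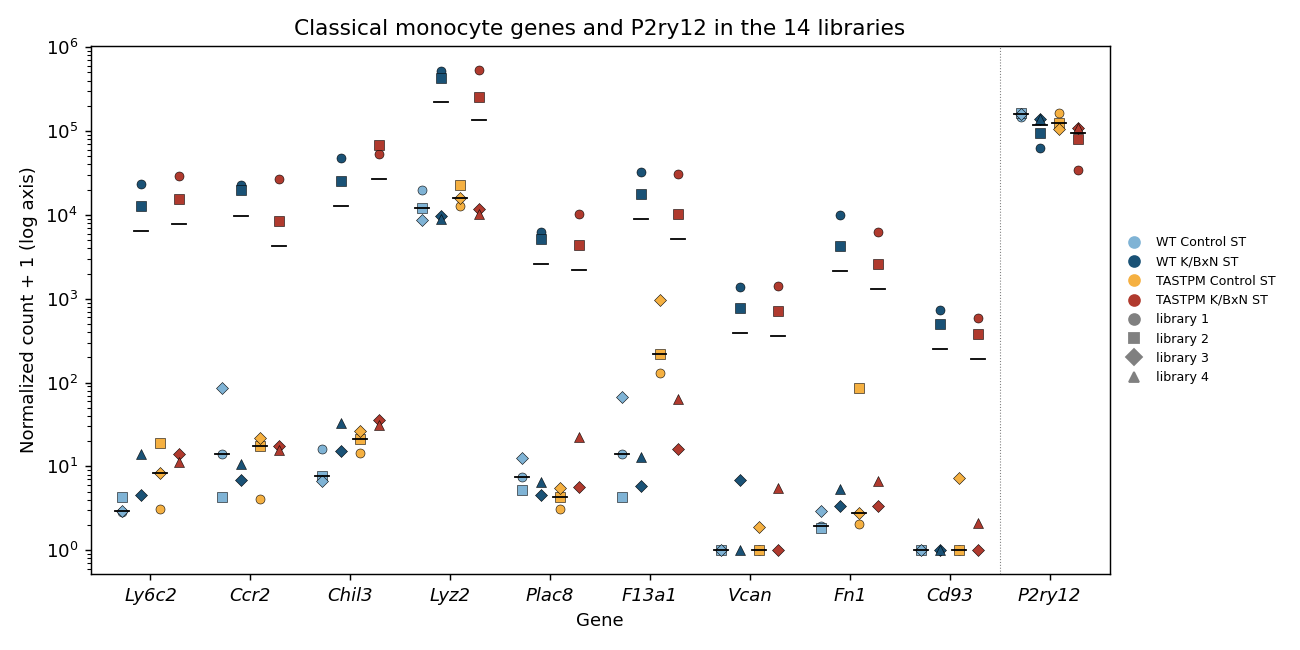
Normalized count plus 1 (log axis) of the 9 classical monocyte genes and of P2ry12 in each of the 14 libraries, coloured by group with the symbol giving the library number; short bars are group medians. Libraries 1 and 2 of both K/BxN ST groups lie far above every other library for each monocyte gene and lowest for P2ry12, and the medians of the K/BxN ST groups fall in the gap between the libraries.

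Both genes whose proteins were used to remove monocytes were present at high levels in 4 of the 14 libraries. Ly6c2, which encodes the Ly6C surface antigen (chromosome 15, 74980003 to 74988467, GRCm39, minus strand), reached normalized counts of 23510, 12898, 3.58 and 13.1 under K/BxN ST in WT, where Control ST gave 1.87, 3.35 and 1.91. The TASTPM libraries had 29133, 15646, 12.9 and 10.2 under K/BxN ST and 2.09, 17.8 and 7.27 under Control ST. Outside the 4 high libraries Ly6c2 did not pass 17.8, and each K/BxN ST group held 2 high and 2 low libraries. The fitted log2 difference, K/BxN ST minus Control ST, was 6.82 ± 3.15 (SE) in WT and 6.04 ± 3.15 in TASTPM on the scale of log2(normalized count + 1).

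Ccr2, the receptor for monocyte chemoattractants (chromosome 9, 123901982 to 123913594, plus strand), followed the same libraries. Its normalized counts in WT were 22987, 19661, 5.97 and 9.81 under K/BxN ST against 13.1, 3.35 and 86.0 under Control ST. In TASTPM the values were 27035, 8537, 16.4 and 14.7 against 3.13, 16.7 and 20.9. The 2 low WT K/BxN ST libraries lay inside the range of the Control ST libraries, and the highest value outside the 4 libraries was in WT Control ST library 3. The log2 difference was 4.62 ± 3.11 (SE) in WT and 5.42 ± 3.11 in TASTPM.

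Cd93, a receptor of endothelial and myeloid cells that also marks monocytes (chromosome 2, 148270798 to 148285546, minus strand), was the least abundant of the 9 per kb of exon at its peak. WT mice given K/BxN serum had 733, 500, 0 and 0 normalized counts of it, and no WT Control ST library had a read. For TASTPM the values were 592, 376, 0 and 1.13 against 0, 0 and 6.36. The WT K/BxN ST mean was thus at least 113-fold higher than Control ST, taking 3 reads in each Control ST library as the limit that a count of 0 allows, and all of that mean came from libraries 1 and 2.

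The promoters of these genes are shown because the 9 transcripts were high in the same libraries, and because PU.1 and C/EBP proteins are known to act at monocyte promoters. Of the 9 genes, 7 matched the RefSeq promoter table (build GRCm38.p6), and the 250 bases before the transcription start are printed 5′ to 3′ on the strand of the gene for Ly6c2 (chr15:75111972-75112221, minus strand), Ccr2 (chr9:124101933-124102182, plus strand), Chil3 (chr3:106167565-106167814, minus strand) and Lyz2 (chr10:117282273-117282522, minus strand). Capitals mark AGGAAG, the core bound by PU.1 and other ETS factors, and TTNNGNAAT, a C/EBP consensus, each searched on both strands, and the matches do not overlap.
Ly6c2: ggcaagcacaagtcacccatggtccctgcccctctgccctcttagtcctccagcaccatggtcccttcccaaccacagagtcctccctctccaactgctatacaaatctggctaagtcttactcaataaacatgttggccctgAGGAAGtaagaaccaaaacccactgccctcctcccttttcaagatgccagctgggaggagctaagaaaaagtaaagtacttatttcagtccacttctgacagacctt
Ccr2: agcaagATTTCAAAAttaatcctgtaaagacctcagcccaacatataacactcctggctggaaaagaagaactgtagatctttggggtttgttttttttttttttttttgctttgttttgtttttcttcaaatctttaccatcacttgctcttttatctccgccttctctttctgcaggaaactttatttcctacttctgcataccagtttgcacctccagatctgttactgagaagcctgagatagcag
Chil3: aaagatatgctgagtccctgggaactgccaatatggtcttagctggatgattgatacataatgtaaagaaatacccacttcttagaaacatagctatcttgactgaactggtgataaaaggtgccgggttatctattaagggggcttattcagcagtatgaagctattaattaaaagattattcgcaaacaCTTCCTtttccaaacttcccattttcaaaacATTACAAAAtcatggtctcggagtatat
Lyz2: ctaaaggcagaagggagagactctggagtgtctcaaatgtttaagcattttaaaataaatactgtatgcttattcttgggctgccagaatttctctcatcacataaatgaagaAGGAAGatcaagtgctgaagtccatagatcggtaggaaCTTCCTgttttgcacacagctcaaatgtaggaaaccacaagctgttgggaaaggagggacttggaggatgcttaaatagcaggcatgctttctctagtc
AGGAAG was found before Ly6c2, Chil3, Lyz2, F13a1 and Vcan, in 7 of the 10 promoters listed for the 7 genes, and in 29.5% of 32851 promoters of the same length. The promoters listed for Ly6c2 overlap and share an AGGAAG site, which is counted in each of them. TTNNGNAAT was found before Ccr2 and Chil3, in 2 of 10 promoters, against 10.2% of all. An interferon-response core, GAAA repeated after 2 bases of any kind, was found in 0 of the 10 against 2.98%. AGGAAG was also present before P2ry12, which was lowest in the libraries where the monocyte genes were highest. These are matches of letters in a window and no measure of binding.

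Of the secreted defence proteins, Lyz2, lysozyme M (chromosome 10, 117111557 to 117118346, minus strand), was by far the most abundant. Counts in WT were 516803, 430968, 9736 and 9022 under K/BxN ST against 19704, 12083 and 8743 under Control ST. The TASTPM values were 536223, 258065, 11869 and 10309 against 12800, 22933 and 15953. Unlike the other genes of the set, Lyz2 was abundant in all libraries, with a log2 difference of 2.38 ± 1.54 (SE) in WT and 1.94 ± 1.54 in TASTPM. Among all genes of a library, Lyz2 ranked 1 by normalized count in libraries 1 and 2 of WT K/BxN ST, as well as in TASTPM K/BxN ST library 1 and ranked 2 in TASTPM K/BxN ST library 2. In the other 10 libraries its rank was between 72 and 247. Per kb of exon, Lyz2 was 7.84, 4.39, 14.9 and 3.11 times P2ry12 in these 4 libraries in the order WT 1, WT 2, TASTPM 1 and TASTPM 2, and between 0.0526 and 0.177 times P2ry12 in the other 10.

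Chil3, which encodes the chitinase-like protein Ym1 (chromosome 3, 106054870 to 106074880, minus strand), showed the widest gap between the 4 high libraries and the other 10. At 727 times it was hardly wider than that of Ly6c2, at 726 times. The 4 WT libraries of K/BxN ST had 48346, 25628, 14.3 and 31.6 normalized counts of Chil3 and the 3 of Control ST had 14.996, 6.71 and 5.73. Those of TASTPM had 53696, 69026, 35.2 and 30.5 against 13.6, 19.98 and 25.4. Chil3 was the exception to the order of the libraries, since TASTPM K/BxN ST library 2, which was below library 1 for the other 8 genes, had the highest Chil3 of all. The log2 difference was 6.56 ± 3.06 (SE) in WT and 6.16 ± 3.06 in TASTPM.

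Plac8, a small intracellular protein of myeloid cells (chromosome 5, 100701591 to 100720111, minus strand), gave 6254, 5198, 3.58 and 5.45 normalized counts under K/BxN ST in WT against 6.56, 4.19 and 11.5 under Control ST. The corresponding TASTPM values were 10250, 4329, 4.70 and 21.4 against 2.09, 3.33 and 4.54. In WT the 2 low K/BxN ST libraries lay within or below the Control ST range, whereas in TASTPM all 4 lay above the 3 Control ST libraries, the lowest by a narrow margin. The log2 difference was 4.48 ± 2.80 (SE) in WT and 6.03 ± 2.80 in TASTPM.

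F13a1, the A subunit of clotting factor XIII (chromosome 13, 37051152 to 37234277, minus strand), is made by monocytes and also by macrophages at the borders of the nervous system. WT libraries had 32194, 17938, 4.78 and 11.99 normalized counts under K/BxN ST against 13.1, 3.35 and 66.9 under Control ST. TASTPM libraries had 30878, 10358, 15.3 and 62.0 against 128, 218 and 969. The direction in TASTPM therefore depended on the library, with 2 libraries above and 2 below every Control ST library, and the log2 difference was 1.33 ± 3.04 (SE), against 4.83 ± 3.04 in WT. Without TASTPM K/BxN ST library 1 alone, the TASTPM difference turned to -0.46.

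The matrix proteins were low outside the 4 libraries. Fn1, fibronectin (chromosome 1, 71624673 to 71692419, minus strand), was at 9931, 4250, 2.39 and 4.36 normalized counts under K/BxN ST in WT against 0.937, 0.838 and 1.91 under Control ST. TASTPM values were 6223, 2580, 2.35 and 5.64 against 1.04, 85.5 and 1.82, with a single Control ST library above the 2 low K/BxN ST libraries. Its log2 difference was 6.25 ± 3.07 (SE) in WT and 4.12 ± 3.07 in TASTPM. Vcan, the proteoglycan versican (chromosome 13, 89803431 to 89890814, minus strand), was at 1395, 768, 5.97 and 0 under K/BxN ST in WT, where Control ST gave no read. In TASTPM K/BxN ST it was at 1423, 708, 0 and 4.51, and the 3 TASTPM Control ST libraries had 1 read together. The WT K/BxN ST mean of Vcan was at least 199-fold higher than Control ST, on the same limit of 3 reads in each Control ST library.

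Taken as a share of all reads on genes, the 9 transcripts made up 3.92% (95% Wilson interval 3.91% to 3.93%), 3.12% (3.11% to 3.13%), 0.0575% and 0.0547% under K/BxN ST in WT, where Control ST gave 0.0516% to 0.109%. The shares in TASTPM K/BxN ST were 4.23% (4.22% to 4.24%), 2.22% (2.22% to 2.23%), 0.0708% and 0.0631%, and in TASTPM Control ST 0.0743% to 0.139%. Intervals cover counting error only. The 2 low K/BxN ST libraries thus lay within the Control ST shares in WT and below them in TASTPM. Without Lyz2 the other 8 transcripts made up 0.523% to 0.968% in the 4 high libraries and 0.000128% to 0.00630% in the other 10, where Lyz2 held 93.9% to 99.8% of the reads of the set.

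P2ry12, the purinergic receptor by which homeostatic microglia are known, moved the other way in the same libraries. WT counts of P2ry12 were 63550, 94752, 140287 and 139465 under K/BxN ST and 149159, 166138 and 160388 under Control ST. TASTPM counts were 34656, 79940, 107606 and 110310 under K/BxN ST and 165494, 124761 and 106484 under Control ST. All 4 WT K/BxN ST libraries lay below all WT Control ST libraries, while in TASTPM the 2 libraries with low monocyte genes lay inside the Control ST range. As P2ry12 was the gene the set was to be compared with, its differences of -0.60 ± 0.40 (SE) in WT and -0.78 ± 0.40 in TASTPM on the log2 scale are given as a description.

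Library by library, a low P2ry12 went with a high level of the set. Over the 9 genes, the median log2 ratio to Control ST (the mean in the same genotype) was 10.1 in WT K/BxN ST library 1 and 9.28 in library 2, and P2ry12 stood at 40.1% and 59.8% of its Control ST mean there. In TASTPM K/BxN ST the ratios were 10.1 in library 1 and 9.09 in library 2, with P2ry12 at 26.2% and 60.4%. In both genotypes the library with the higher ratio had the lower P2ry12. In the remaining K/BxN ST libraries the ratio was 0 in both WT libraries and -0.38 and 0.11 in TASTPM, and P2ry12 was at 88.5% and 88.0% in WT and 81.4% and 83.4% in TASTPM. A P2ry12 level some way below the Control ST mean was thus also present without the monocyte genes, but in TASTPM it did not leave the range of the Control ST libraries, which was 80.5% to 125%.

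**Figure D2:**
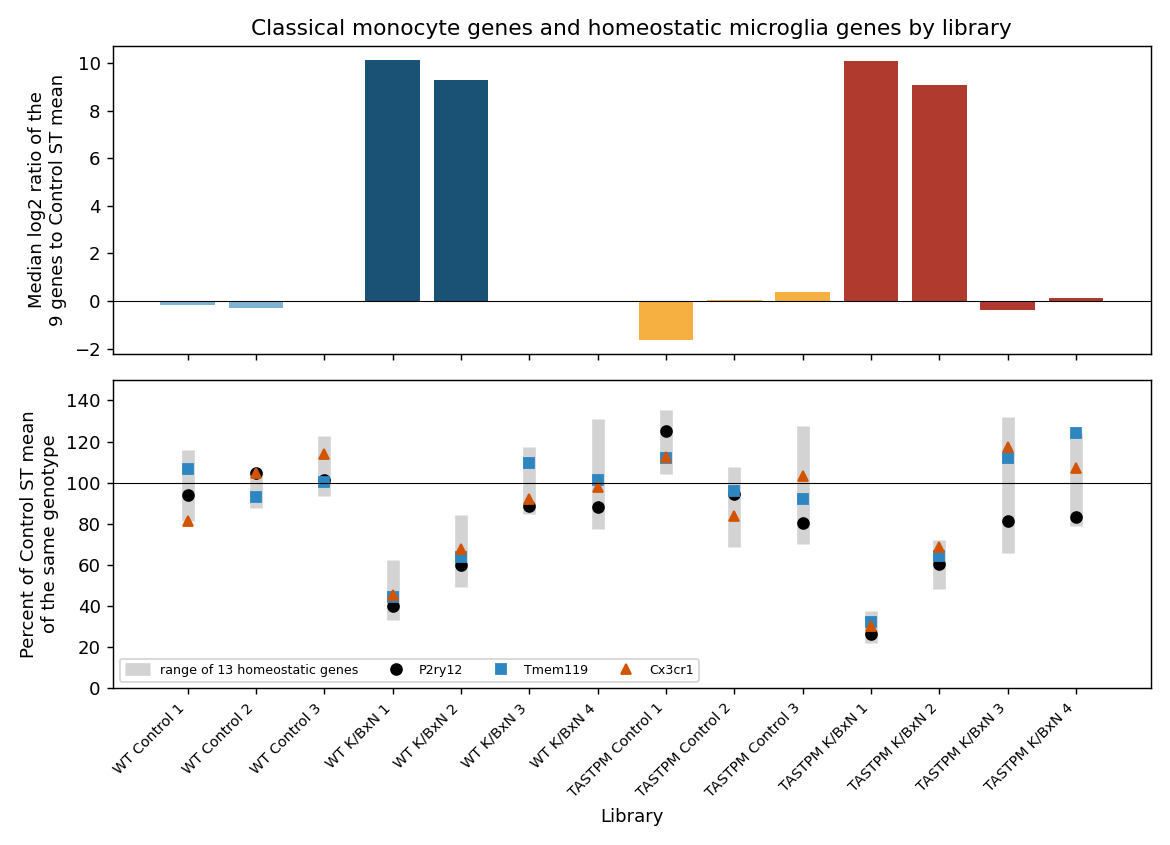
Top, median log2 ratio of the 9 monocyte genes to Control ST (the mean in that genotype), by library; bottom, P2ry12, Tmem119 and Cx3cr1 as percent of that mean, with grey bars for the range of 13 homeostatic microglia genes. The 4 libraries with ratios of 9.09 to 10.1 are those with all 3 microglial genes lowest, and in the other K/BxN ST libraries P2ry12 lies below Tmem119 and Cx3cr1.

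P2ry12 was not alone in this. Tmem119 was at 44.4% and 63.8% of the Control ST mean in libraries 1 and 2 of WT K/BxN ST, and libraries 1 and 2 of TASTPM K/BxN ST had 32.2% and 64.1%. Cx3cr1, whose protein was used in the sort, was at 45.3%, 67.5%, 30.4% and 68.7% in the same order. Over the 13 homeostatic genes the median was 40.1%, 61.0%, 31.6% and 68.2%, so P2ry12 lay at or below the list's median in each of the 4 libraries. Gpr34, a lysophospholipid receptor, was at 28796, 44760, 16072 and 42911 normalized counts there and at 47796 to 98559 in the other 10 libraries, and Fcrls, an Fc receptor-like protein, at 16000, 23315, 9980 and 25294 against 29523 to 55011. In the other 4 K/BxN ST libraries Tmem119 was at 101% to 124% and Cx3cr1 at 91.9% to 117%, and P2ry12 was the lowest of the 3 genes in each of them. The part of monocyte transcripts in the level of the microglial genes was not tested.

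The make-up of the signal differed between the 4 libraries. Among the reads on the 8 genes other than Lyz2, Chil3 took 61.9% in TASTPM K/BxN ST library 2, against 33.7% in TASTPM K/BxN ST library 1 and 33.3% and 29.5% in WT K/BxN ST libraries 1 and 2. Ccr2 took 7.65% in TASTPM K/BxN ST library 2 and 15.8% to 22.6% in the other 3 libraries, and F13a1 9.29% against 19.4% to 22.1%. Relative to Ly6c2, Chil3 ranged from 1.84 to 4.41 normalized counts per count of Ly6c2 and Ccr2 from 0.546 to 1.52, whereas Vcan kept between 0.0452 and 0.0595. Lyz2 ranged from 16.5 to 33.4, highest in WT K/BxN ST library 2. Per kb of exon the order in each of the 4 libraries began with Lyz2 (77614 to 161270 normalized counts per kb), Chil3 (14644 to 39443) and Ly6c2 (4221 to 9533), and ended with Fn1, then Vcan and Cd93, which were at 30.7 to 86.0.

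**Figure D3:**
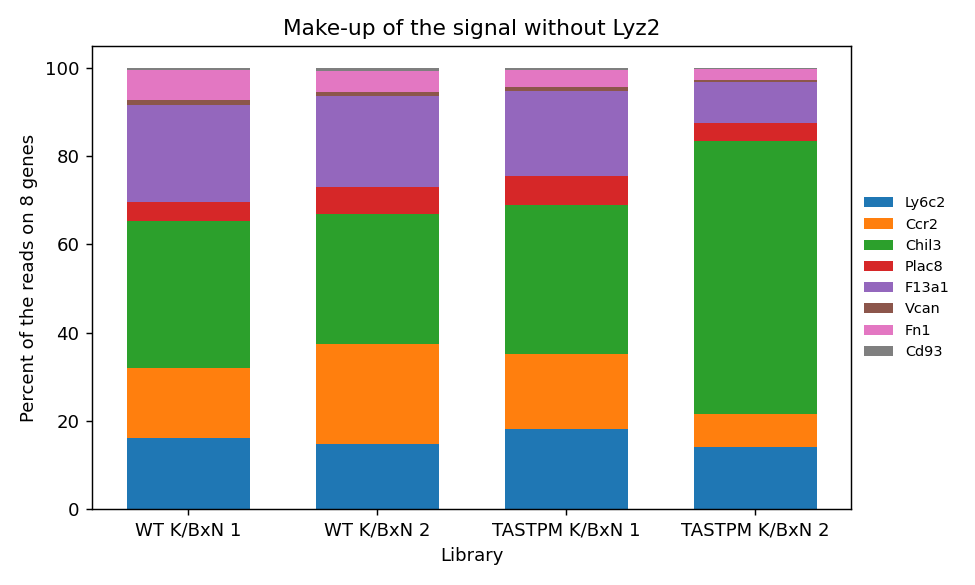
Share of the reads on 8 classical monocyte genes (without Lyz2) taken by each gene, in percent, in the 4 libraries where the set was high. Chil3 takes 61.9% in TASTPM K/BxN ST library 2 and 29.5% to 33.7% in the other 3.

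Close copies of 3 of the genes could share reads with them. Ly6c2 has a stretch of 340 identical bases in common with Ly6c1, a gene of endothelial cells, and Ly6c1 was at 29.8 and 12.4 in libraries 1 and 2 of WT K/BxN ST, with 31.2 and 9.51 for those of TASTPM. Its highest value, 81.8, was in TASTPM Control ST library 3, where Ly6c2 was at 7.27. Lyz1, which shares up to 118 bases with Lyz2, reached 880 and was at 459 or more in the 4 libraries and at 74.4 or less elsewhere. Chil4, the copy of Chil3, had no values among the 14329 genes used here.

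Other lists hold genes known from blood and tissue cells. They were chosen with earlier results of these data known, so they serve as a description and not as independent evidence of a cell type. Of the 18 other classical monocyte genes, 11 passed the filter. All 18 of 18 other classical monocyte genes lay above every Control ST library of the same genotype in each of the 4 libraries, against 0, 5, 1 and 1 of 18 in libraries 3 and 4 of WT and then of TASTPM K/BxN ST. Over all 14329 genes with values, the share above every Control ST library was 31.2% and 27.3% in libraries 1 and 2 of WT K/BxN ST, and libraries 1 and 2 of TASTPM K/BxN ST had 31.2% and 27%. In libraries 3 and 4 it was 23% and 23.3% in WT and 25.5% and 19.9% in TASTPM. The summed normalized count of the 18 genes was 106750, 66330, 135158 and 62404 in the 4 libraries and 6597 to 12627 in the other 10. Hp, haptoglobin, was at 17950, 9395, 25011 and 12649 in the 4 libraries and at 48.0 or less elsewhere, and Ifitm6, an interferon-induced transmembrane protein, at 4929, 2771, 5792 and 1688 against 24.4 or less. Clec4e, the receptor Mincle, was at 2432, 669, 5677 and 1664 in the 4 libraries and had at most 2.51 elsewhere. The median log2 difference over the 18 genes was 3.55 in WT and 2.68 in TASTPM, beside 4.83 and 5.29 over the 9 genes and 0.06 and 0.01 over all genes tested.

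Neutrophil genes were high in 3 of the 4 libraries and parted from the monocyte genes in WT K/BxN ST library 2. Ngp, a neutrophil granule protein, was at 55008 in library 1 of WT K/BxN ST, and at 63729 and 50469 in libraries 1 and 2 of TASTPM K/BxN ST, but at 32.8 in WT K/BxN ST library 2, where Ly6c2 was at 12898. S100a8, a calcium-binding protein of neutrophils that monocytes also make, had 53594, 39499 and 50146 in those 3 libraries and 143 in WT K/BxN ST library 2, below the 969 of WT Control ST library 3. Ltf, lactoferrin, was at 24348, 25011 and 18114 against 0.883, and Ly6g, which marks neutrophils, at 868, 440 and 567 against 0. Mmp8, a neutrophil collagenase, was the exception with 3245 in WT K/BxN ST library 2, beside 9973, 8832 and 7277. Of the 12 neutrophil genes with values, 11 were above every Control ST library of the genotype in each of the 3 libraries, beside 27% to 31.2% of all genes. Lcn2, a siderophore-binding protein of neutrophil granules, was at 12424, 8568 and 8606 there and at 103 in WT K/BxN ST library 2. In that library 4 of 12 were above every Control ST library, beside 27.3% of all genes. The low libraries had 1 and 5 of 12 in libraries 3 and 4 of WT (beside 23% and 23.3%) and 6 and 3 in those of TASTPM (beside 25.5% and 19.9%). The sum over the list in WT K/BxN ST library 2, 10440, lay inside the range of the WT Control ST libraries, 7924 to 11988, most of it from Csf3r.

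**Figure D4:**
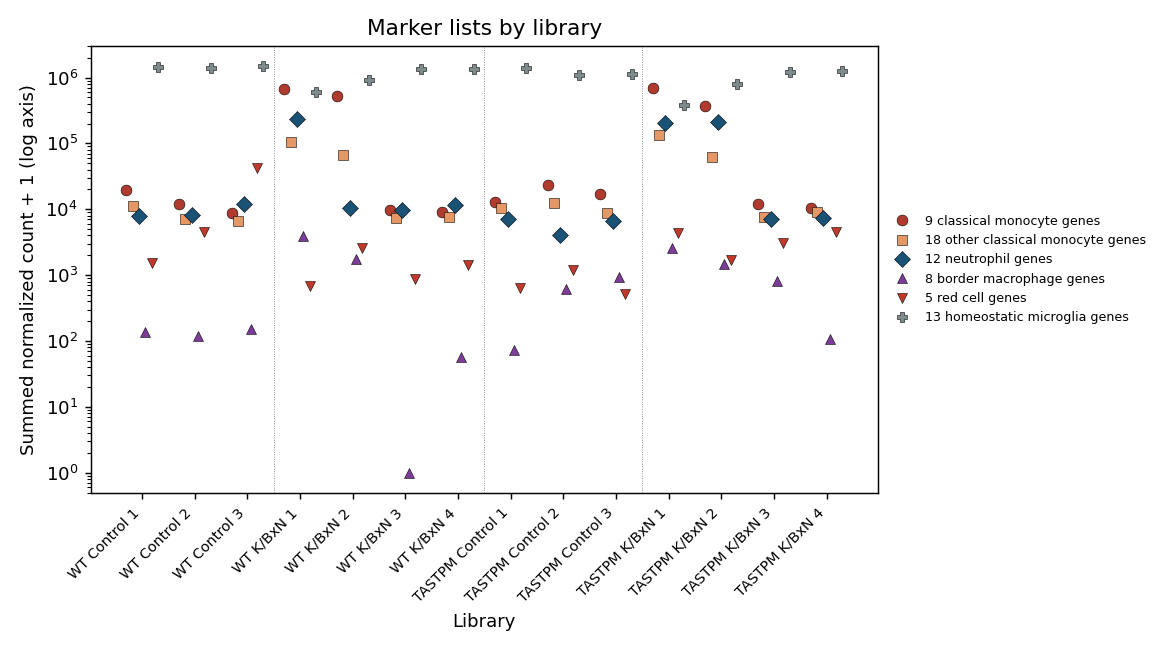
Summed normalized count plus 1 (log axis) of marker lists in each library. The 9 and the 18 classical monocyte genes are high in the same 4 K/BxN ST libraries, the neutrophil list is high in 3 of them and at 10440 in WT K/BxN ST library 2, and the red cell list is highest in WT Control ST library 3.

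Genes of other blood and border cells were present in the same libraries to different extents. Cd209a, a lectin of monocyte-derived dendritic cells, was at 3844 and 1031 in libraries 1 and 2 of WT K/BxN ST, with 6678 and 440 for those of TASTPM, and at 2.18 or less elsewhere. On the same list Flt3, a receptor of dendritic cell precursors, was at 243 to 923 in the 4 libraries and up to 127 elsewhere, and Clec9a, which marks cross-presenting dendritic cells, was at 11.7 to 24.7 against no read in the other 10. Of the 5 dendritic cell genes, 5, 4, 4 and 3 lay above every Control ST library of the genotype in the 4 libraries, beside 27% to 31.2% of all genes. Their log2 differences were positive for 5 of 5 in WT but for 3 of 5 in TASTPM, where Itgax was at -1.15 ± 1.17 (SE). For non-classical monocytes, Cd300e and Itgal had log2 differences of 5.03 ± 2.51 (SE) and 5.45 ± 3.05 in WT, and 5.13 ± 2.51 and 0.51 ± 3.05 in TASTPM. Over the 12 genes the median difference was 3.95 in WT, with 12 positive, and 1.00 in TASTPM, with 10 positive. In each of the 4 libraries 11 or 12 of the 12 genes lay above every Control ST library of the genotype, beside 27% to 31.2% of all genes. Pglyrp1, a peptidoglycan-binding protein on that list that neutrophils also make, was at 2470, 543, 2541 and 2541 in the 4 libraries and at 18.1 or less elsewhere. The 8 border macrophage genes summed to 3889, 1786, 2580 and 1485 in the 4 libraries, and to 0 to 947 in the others. Clec4n, a lectin on that list, was at 66.4 to 752 in the 4 libraries and at 1.09 or less in the other 10. The only lymphocyte gene with values, the B cell gene Cd79a, was at 21.3 to 244 in the 4 libraries and at most 44.9 elsewhere. Red cell genes did not follow the monocyte genes. In WT their sum was 676 and 2569 in libraries 1 and 2 of WT K/BxN ST, and highest, at 41819, in WT Control ST library 3, where the 9 monocyte genes summed to 8917. In TASTPM the sums under K/BxN ST (4436, 1677, 3097 and 4571) were all above those under Control ST (508 to 1205), the low libraries 3 and 4 included, and the groups did not overlap for 4 of the 5 red cell genes, higher under K/BxN ST, beside 2.67% of genes. The globin gene Hbb-bs had a log2 difference of -2.69 ± 0.87 (SE; limma adjusted p = 0.582) in WT and 2.43 ± 0.87 (adjusted p = 0.964) in TASTPM, and Hbb-bt -3.11 ± 1.48 and 3.95 ± 1.48. WT Control ST library 3 also had the highest Ccr2, F13a1 and Plac8 of the WT Control ST libraries.

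Among 14294 other genes with at least 10 reads in some library, the profile of Ly6c2 over the 14 libraries was matched most closely by Chil3, with a root mean square difference of 0.60 on the log2 scale after each gene was centred on its own mean. Close to Ly6c2 outside the set were also Cd177, Sirpb1c, Gpr141, F10 and Anxa1, at 0.78 to 1.16. Cd177, a surface protein best known from neutrophils, was at 10724 and 3892 in libraries 1 and 2 of WT K/BxN ST, with 9943 and 4487 for those of TASTPM, and so was high in WT K/BxN ST library 2, like Mmp8 and unlike Ngp, Ltf and Ly6g. Within the set, Fn1 (1.14), Plac8 (1.28), Ccr2 (1.39), Vcan (1.53) and Cd93 (1.64) came next, followed by F13a1 (2.29) and Lyz2 (3.05), which ranked 126 and 278 of the 14294. The profiles share their libraries and their depth, and likeness is given as a description.

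Among transcription factors of the monocyte lineage, Spi1, Cebpb and Irf8 had smaller log2 differences by serum than any of the 9 genes, and Klf4 in WT did not. Spi1, which encodes PU.1 and is needed in both cell types, was at 9875 and 8779 in libraries 1 and 2 of WT K/BxN ST, with 10673 and 8277 for those of TASTPM, against 5949 to 8244 in the other 10 libraries. Cebpb was at 4743, 3312, 8068 and 4344 in the 4 libraries, against 796 to 3945 elsewhere, and its log2 difference was 1.24 ± 0.44 (SE; limma adjusted p = 0.629) in WT and 0.95 ± 0.44 (adjusted p = 0.964) in TASTPM. Irf8 was lowest in TASTPM K/BxN ST library 1, at 3913, and its adjusted p was 0.718 in WT and 0.964 in TASTPM. Cebpa, a factor of early myeloid fate, was at 713, 929, 382 and 686 in the 4 libraries and at 683 to 1341 elsewhere. Klf4, which promotes monocyte fate, had no read under Control ST in WT but 231, 112, 39.4 and 5.45 normalized counts under K/BxN ST, with a limma adjusted p of 0.179, and was at 83.6 to 101 in TASTPM Control ST, and its values were not confined to the 4 libraries. With all libraries in the fit, limma did not call Klf4 in either genotype, but without WT K/BxN ST library 4 it called Klf4 in WT, at a log2 difference of 6.67 with an adjusted p of 0.0300. The limma adjusted p of Klf4 in WT reached 1.00 without the 4 libraries, edgeR gave an adjusted p of 0.534 and DESeq2 called it (adjusted p = 5.87e-06). Between the genotypes under Control ST, Klf4 had a log2 difference of 6.52 ± 1.15 (SE; limma adjusted p = 0.357, edgeR 0.632, DESeq2 4.00e-05) against WT libraries with no read, a value that depends on the prior count or pseudocount.

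Ligands and receptors of the set showed no common direction. Of the chemoattractants for CCR2, Ccl12 had log2 differences of -1.26 ± 0.84 (SE; limma adjusted p = 0.764) in WT and 0.97 ± 0.84 (adjusted p = 0.964) in TASTPM, and Ccl2 in WT was at 30.0 to 154 under Control ST and at 55.8 to 323 under K/BxN ST. Ccl7 was at 107 in WT K/BxN ST library 1 and 60.9 in TASTPM K/BxN ST library 2 and at 13.5 or less elsewhere. Among receptors for fibronectin and other matrix, Cd44, which is also on the list of other classical monocyte genes, had 6074, 3118, 5787 and 2561 normalized counts in the 4 libraries and 21.0 to 357 in the other 10. The integrin gene Itgb1 was at 5538 to 7978 in the 4 libraries and 5244 to 9367 in the others. Tlr2 (5084 to 7893 against 3809 to 9537), a Toll-like receptor, overlapped between these libraries as well, and so did the integrin gene Itgb3 (233 to 946 against 653 to 2091).

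Across all genes, limma called 1 of 12645 genes (0.00791%) in WT and 0 (0%) in TASTPM for K/BxN ST against Control ST, at an adjusted p below 0.05 and an absolute log2 difference above 1, with 902 and 533 genes at an unadjusted p below 0.05. The gene called was Rarg, named here after its values were seen. edgeR called 0 and 0, and DESeq2 called 127 and 16. With this contrast used to choose the set, nothing is read from the members' place in it. In WT, 2 of the 9 genes, Ly6c2 and Fn1, had all 4 K/BxN ST libraries above all 3 Control ST libraries, beside 3.75% of the 14329 genes with values (3.67% of the 12645 genes tested, which do not hold Fn1). In TASTPM the 2 were Chil3 and Plac8, beside 2.61% (2.67% of the genes tested, which do not hold Plac8). For the microglia list, 6 of the 13 homeostatic genes had all WT K/BxN ST libraries below all WT Control ST libraries, beside 3.71% of genes tested, and 0 of 13 in TASTPM, beside 2.74%. Without the 4 libraries that stood apart, these counts were again 2 genes in WT (beside 9.89% of genes with values), 2 in TASTPM (8.97%), and, beside shares of the genes tested, 6 of 13 and 0 of 13 for the microglia list (8.84% and 9.32%), each now resting on 2 K/BxN ST libraries. In TASTPM 2 of the 9 genes, Lyz2 and F13a1, then had both K/BxN ST libraries below every Control ST library, beside 8.91% of genes with values, and in WT 0 of 9, beside 8.08%. In the low libraries these orders rested on few reads, as Ly6c2 had 3 reads in WT K/BxN ST library 3 and 4 in WT Control ST library 2.

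Without the 4 libraries, the differences of the set were of either sign, from -3.24 for F13a1 in TASTPM to 1.43 for Plac8 in TASTPM. In WT the log2 difference was then 1.28 for Ly6c2, 1.25 for Chil3, 1.40 for Vcan, 0.97 for Fn1 and 0 for Cd93, and it was negative for Ccr2 (-1.01), F13a1 (-0.89), Plac8 (-0.53) and Lyz2 (-0.45). In TASTPM it was 1.43 for Plac8, 0.92 for Vcan, 0.75 for Chil3, 0.67 for Ly6c2 and 0.50 for Ccr2, and negative for F13a1 (-3.24), Fn1 (-0.75), Lyz2 (-0.60) and Cd93 (-0.42). P2ry12 kept a difference of -0.18 in WT and -0.26 in TASTPM. All of these compare 2 K/BxN ST with 3 Control ST libraries, at the values given above for single libraries.

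The genotypes were compared within each serum. The Control ST comparison does not use the K/BxN ST values, except through the shared estimate of the spread and the filter. Ly6c2 passed that filter with 6 K/BxN ST and 1 Control ST libraries. Control ST values were part of the contrast that chose the set, so here too the values for the 9 genes are a description. Under Control ST, limma called 0 of the 12645 genes (0%, with 704 at an unadjusted p below 0.05). As a description, the limma adjusted p of the 9 genes, 4 of them below the filter, was between 0.941 and 0.996. The split among the K/BxN ST libraries enters their SE of 1.65 to 3.37. Without the 4 libraries that stood apart, the SE was 0.28 to 1.59 and the adjusted p between 0.649 (F13a1) and 0.987. The comparison under K/BxN ST and the interaction of genotype and serum reuse the K/BxN ST values that chose the set, so their values for the 9 genes are a description. Over all genes, limma called 0 under K/BxN ST (0%, with 241 at an unadjusted p below 0.05) and 0 for the interaction (0%, with 385). edgeR called 0 genes in each of these 3 comparisons, and DESeq2 called 41, 0 and 12 over all genes. Under K/BxN ST the SE was 1.43 to 2.92 on the log2 scale with all libraries, and without the 4 libraries it was 0.34 for Lyz2 and 1.23 to 1.95 for the other 8 genes, with 2 libraries in each genotype. Leaving out single libraries or the 4 libraries, or another scale, pseudocount or tool, turned the sign under K/BxN ST for 9 of the 9 genes. For Ly6c2 the difference, TASTPM minus WT, was 0.46 ± 2.92 (SE) under K/BxN ST and ran from -1.65 to 2.45 over the alternatives, and for Lyz2 it was -0.05 ± 1.43 and ran from -1.07 to 0.93.

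Of the 5 genes that passed the filter, F13a1 had the largest difference between the genotypes under Control ST in limma, edgeR and DESeq2. Below the filter, Fn1 (log2 difference 4.45 in edgeR and 4.58 in DESeq2, against 1.86 in limma) and Cd93 were above it in edgeR and DESeq2, each with 1 TASTPM library far above the others. Its 3 TASTPM Control ST libraries (128, 218 and 969 normalized counts) all lay above the 3 WT Control ST libraries (13.1, 3.35 and 66.9), an order shared by 4.97% of the 12645 genes. The log2 difference was 4.23 ± 3.25 (SE) with a limma adjusted p of 0.941, and without the 4 K/BxN ST libraries that stood apart the SE was 1.22 with an adjusted p of 0.649. For Ly6c2 the log2 difference was 1.24 ± 3.37 (SE; 1.31 without the 4 libraries) and for Ccr2 -0.58 ± 3.32 (1.35), and their difference from F13a1 was not tested. Beside F13a1, genes of border macrophages varied in the same Control ST libraries. Cd163, a scavenger receptor, was at 12.5, 18.9 and 253 in TASTPM Control ST libraries 1 to 3, and at 0.937, 3.35 and 0 in WT Control ST. Lyve1 was at 0, 476 and 351 against 0 in every WT Control ST library, and Cbr2 at 20.9, 75.5 and 121 against 18.7, 0 and 3.82. The log2 difference was 4.33 ± 2.53 (SE; limma adjusted p = 0.901) for Cd163 and 3.69 ± 2.63 (adjusted p = 0.932) for Cbr2. Over the 8 genes on that list it was positive for 5 and negative for Ms4a7 (-0.29) and Siglec1 (-0.72), and Clec4n had no read in any Control ST library. The summed list was 73.1 to 947 in TASTPM Control ST and 119 to 149 in WT Control ST. The part of border macrophage transcripts in the F13a1 values was not tested.

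**Figure D5:**
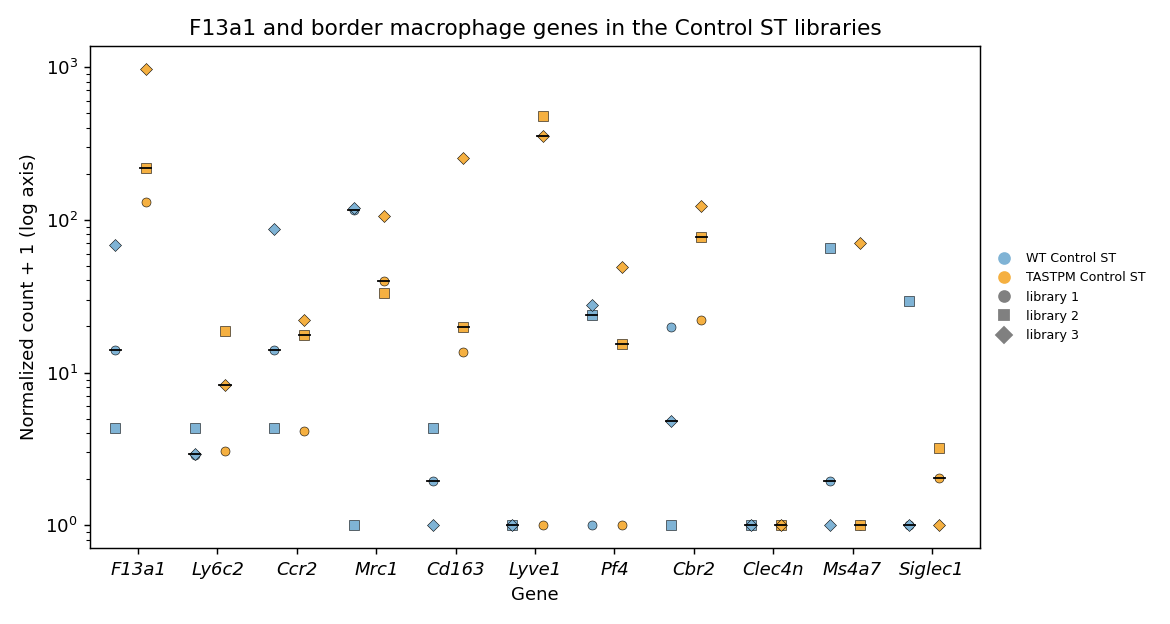
Normalized count plus 1 (log axis) of F13a1, Ly6c2, Ccr2 and the 8 border macrophage genes in the 6 Control ST libraries, coloured by genotype with the symbol giving the library number; short bars are group medians. F13a1, Cd163 and Cbr2 are higher in all TASTPM than in all WT libraries, Ly6c2 and Ccr2 overlap, and Lyve1 is at 0 in all WT libraries and in TASTPM library 1.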

How the data were processed

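The authors amplified RNA from 2000 sorted cells per sample, aligned reads with HISAT2 2.1 to GRCm39 and counted them with featureCounts 1.5.2, per the study's methods and the submitters' processing notes. The deposited values are a signal, normalized by the authors with a single factor per library. Whole reads were recovered for 100% of values (tolerance 0.1 reads). Of 14336 entries, 7 with a repeated identifier were left out. The 9 genes and all lists were chosen with earlier results of these data known.

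Values were tested as log2(normalized count + 1) with limma 3.58.1 (R 4.3.3, prior variance with a trend, 1 model of 4 groups) after a filter of 10 reads in 7 of 14 libraries, with Benjamini-Hochberg adjustment over 12645 genes. Members below the filter were fitted beside them. edgeR 4.0.16, planned for counts, became an alternative, beside DESeq2 1.42.0, both on recovered reads. The tests were also run on simulated counts in which all WT K/BxN ST libraries shared a change. That setting lacks the split among the K/BxN ST libraries, so it cannot show how the tests perform under such a split. Genes named are the 9 members, P2ry12, Tmem119, Cx3cr1, the copies Ly6c1, Lyz1 and Chil4, the 2 genes with the largest difference per list and genotype, Spi1, Cebpb, Irf8 and the 6 genes most like Ly6c2, of which 1 is not reported here. S100a8, Ly6g, Csf3r, Cd163, Cbr2, Ms4a7, Ccl2, Itgax, Itgb1, Rarg and Fkbp5 were added after their values were seen. Positions are from a GENCODE annotation of GRCm39 and promoters from RefSeq (GRCm38.p6). Lengths per kb are unions of exons. Alternatives were equal library totals, TMM, pseudocounts of 0.5 and 10, no filter, edgeR, DESeq2, leaving out each library, and leaving out the 4 libraries that stood apart, the last chosen after seeing the data.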

Additional observations from a re-analysis of the deposited data

Results flagged for a closer look

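Among the values of 14 genes (the 9 monocyte genes, P2ry12, Tmem119, Cx3cr1, Ly6c1 and Lyz1), the sums of 12 gene lists and the share of reads on the 9 genes, in the 2 groups of 4 libraries, 54 groups of values in all, 3 sums had a single library far from the other 3 of its group by Dixon's test, which chance gives in about 5% of groups, so that 3 of 54 is near the chance rate. The summed neutrophil genes were 235895 normalized counts in WT K/BxN ST library 1, against 9734 to 11804 in the other 3 libraries of the group, although library 2 held the monocyte genes at high levels. The summed dendritic cell genes were 8079 in TASTPM K/BxN ST library 1, most of it Cd209a at 6678. The summed receptors for matrix proteins were lowest in WT K/BxN ST library 3, at 18147. No single monocyte gene was flagged, because 2 of 4 libraries were high in each K/BxN ST group.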

How the results depend on the processing

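In WT, K/BxN ST against Control ST, 1 gene was called by limma, and 0 were called with a pseudocount of 10, 0 with edgeR, 127 with DESeq2, 0 without the 4 libraries that stood apart, and 0 to 17 without single libraries (Klf4 among the 2 called without K/BxN ST library 4). In TASTPM 0 were called, with 16 by DESeq2 and 0 to 1 without single libraries. TASTPM against WT under Control ST gave 0, with 41 by DESeq2, 0 to 11 without single libraries and 1 (Fkbp5) without the 4 libraries. The interaction gave 0, with 12 by DESeq2 and 0 to 3 without single libraries, the 3 calls arising without WT Control ST library 2. TASTPM against WT under K/BxN ST gave 0 under each alternative run. The number of members with all K/BxN ST libraries above all Control ST libraries in TASTPM was 2, and 2 to 4 without single libraries. Of the log2 differences by serum of the 9 genes and P2ry12, 1 turned its sign with another scale, pseudocount or tool or without a single library (F13a1 in TASTPM, -0.46 to 3.17 without single libraries, the lowest without K/BxN ST library 1), and 8 without the 4 libraries: in WT Ccr2 (-1.01), Lyz2 (-0.45), Plac8 (-0.53) and F13a1 (-0.89), in TASTPM Lyz2 (-0.60), F13a1 (-3.24), Fn1 (-0.75) and Cd93 (-0.42). Between genotypes, over all these alternatives, the sign turned for 1 of the 9 genes under Control ST (Ccr2, -1.58 to 0.58), 9 under K/BxN ST and 7 in the interaction. DESeq2 gave Cd93 an adjusted p of 0.0112 between genotypes under Control ST from 7 reads in 1 library, below the filter. Genes at 0 in Control ST, such as Vcan and Cd93, depend on the prior count in each tool. No paired analysis was possible because the groups share no replicate numbers.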
